A study of Drosophila melanogaster and Drosophila simulans with 11 samples.

Results

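The regions described here are stretches of the X chromosome that were called bound by MSL2 in wild type salivary glands and that overlap no stretch called bound by MOF in the same glands. There are 374 of them among 771 MSL2 regions on X, and among 962 MSL2 regions on all chromosomes. They were chosen by measured values. In each library the deposited log2 ratios of ChIP to input were smoothed with a running median over 500 bp (windows with at least 25 values), and the highest 1.5 percent of the smoothed values of that library counted as bound. The cutoff this gave was a log2 ratio of 0.85 for MSL2 and 2.12 for MOF. Gaps of at most 200 bp between bound positions were closed, and a region had to span at least 200 bp. An MSL2 region with no overlap of 1 bp or more with a MOF region is called MSL2-only below, and an MSL2 region that has such an overlap is called shared. Both names refer to the calls and not to the absence of a protein. The MSL2-only regions were split again into 350 that hold at least 1 smoothed MOF value and 24 that hold none.

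The MSL complex is the dosage compensation complex of *Drosophila* males. It is built from MSL1, MSL2 and MSL3, the helicase MLE, MOF and the non-coding RNAs *roX1* and *roX2*, binds the single male X chromosome and raises the expression of its genes. MSL1 is the scaffold of the complex, MSL2 is the male-specific subunit that is needed to recognise X-chromosomal entry sites, and MOF is the acetyltransferase that acetylates lysine 16 of histone H4. The complex is known to bind first at high-affinity sites and to spread from there over transcribed genes, so that MSL2 and MOF are usually found over the same genes.

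Salivary glands were dissected from larvae of the third instar raised at 25 °C, and each sample held 125 glands. The wild type is Oregon R, for which MSL2 and MOF libraries were used (according to the methods, a wild type sample for MSL1 was lost, and the labels do not give the sex of these larvae, which the study describes as male for the MOF profile). The *roX* mutants are males that carry, on a y w X chromosome, the allele roX1[ex6], the deficiency Df(1)roX2[52] and the transgene P[w+ 4Δ4.3], so that both *roX* genes are mutated, and they were picked from their stock by absence of GFP. For these mutants MSL1, MSL2 and MOF libraries were used. There is 1 library per antibody and genotype, so that the spread between replicates cannot be measured, no test between libraries or classes of regions was made, and every difference below describes these 5 libraries. The libraries of a genotype share 1 input, read depth is unknown, and the same positions of that input enter the MSL2 and the MOF ratio.

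The 5 libraries differed in how much of X they covered. Smoothed values were present at 1218978 X positions for wild type MSL2 and at 484980 for wild type MOF. In the *roX* mutants they were present at 223565 (MSL1), 237697 (MSL2) and 140859 (MOF). On X the median smoothed log2 ratio in wild type was 0.33 (MSL2) and 1.04 (MOF), against 0.20 and 0.17 on the autosomal arms. In the *roX* mutants the medians were 0.74 (MSL1), 0.23 (MSL2) and 0.27 (MOF). Each X median is taken over the positions with a value in that library. The medians thus cover different positions and are not levels of X as a whole. Missing positions were not spread evenly. Of the X positions with a smoothed MSL2 value, 37.0% also had a smoothed MOF value, but inside MSL2 regions 99.2% did. Where both were present, the MOF value rose with the MSL2 value, from a median of 0.30 at positions with MSL2 between 0 and 0.2 to 1.94 at positions with MSL2 between the cutoff and 1.0, and to 3.00 at MSL2 of 1.5 or more. The MOF value was at or above its own cutoff at 33.7% of the positions with MSL2 between the cutoff and 1.0 and at 97.6% of those with MSL2 of 1.5 or more. A position could therefore be well inside an MSL2 region, carry a MOF value above the X median and still be outside the MOF calls.

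MSL2-only regions were shorter and lower in MSL2 value than shared regions. An overlap of 1 bp made a region shared, so a longer region had more positions at which to meet a MOF region. The order in length is thus set in part by the rule, and the value rises with length. Of the 771 MSL2 regions on X, 397 (51.5%) overlapped a MOF region, which is the rule itself and is not a result. The 374 MSL2-only regions made up 48.5% of the regions but held 263420 of 1303580 bp, or 20.2%, of the bound length. The median length was 510 bp in the MSL2-only regions with a MOF value (lowest 210, highest 7070), 365 bp in those without a MOF value (260 to 540) and 1980 bp in the shared regions (260 to 13670). Under 500 bp, which is the smoothing window, were 185 of the 374 MSL2-only regions and 41 of the 397 shared regions.

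Each region has an MSL2 value, the mean over its 5 highest consecutive smoothed log2 ratios. Its median was 0.96 in the MSL2-only regions with a MOF value (0.85 to 1.69), 0.91 in those without (0.86 to 1.08) and 1.32 in the shared regions (0.85 to 2.07). The MSL2 value of 177 of the 374 MSL2-only regions (47.3%) lay within 0.1 of the MSL2 cutoff, against 30 of the 397 shared regions (7.56%). The 3 MSL2-only regions closest to the cutoff had values of 0.85 and lay at X:16263880-16264120, X:9155720-9155920 and X:15658750-15659070 (coordinates are those of release 5 throughout). At the other end, 23 MSL2-only regions against 242 shared regions were at least 1000 bp long with a value of at least 1.2. The full ranges of the classes overlapped in length and value, as the plot of length against value shows, and no cut on either separates them fully. Their quartiles did not overlap. The upper quartile of the MSL2-only regions (745 bp and 1.07) lay under the lower quartile of the shared regions (960 bp and 1.13).

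**Figure D1:**
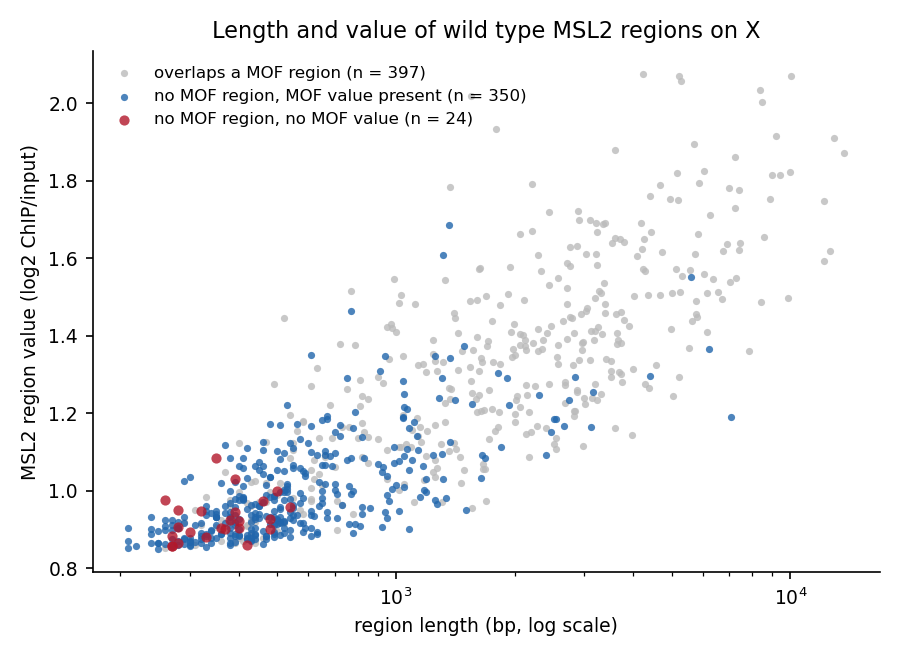
Each point is 1 of the 771 wild type MSL2 regions on X, with its length in bp on a log axis and its region value (mean of the 5 highest consecutive smoothed log2 ratios) on a linear axis. The 350 MSL2-only regions with a MOF value (blue) and the 24 without (red) crowd at the short and low end, with medians of 510 bp and 365 bp, while the 397 shared regions (grey) have a median of 1980 bp.

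Read the other way, the share of MSL2 regions that were MSL2-only fell with the MSL2 value. It was 82.3% of the regions with a value under 1.0, 56.6% between 1.0 and 1.2, 14.4% between 1.2 and 1.5 and 2.88% (3 of 104) at 1.5 or more. Sorted by length it was 81.9% under 500 bp, 67.2% from 500 to under 1000 bp, 33.1% from 1000 to under 2000 bp and 6.64% at 2000 bp or more. Length and value move together (Spearman's rho of 0.86 over the 747 X MSL2 regions with a MOF value, all from 1 library), and their parts in these shares were not separated. The part that length has through the rule of overlap was not separated either.

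MSL2-only did not mean free of MOF signal. The mean smoothed MOF log2 ratio over a region had a median of 1.54 in the 350 MSL2-only regions with a MOF value, with a lowest of 0.22 and a highest of 2.08. The quartiles were 1.24 and 1.78. These regions thus sat at a median percentile of 65.2 among all smoothed MOF values on X. Above the X median of 1.04 were 294 of the 350 (84.0%), above the upper quartile of X (1.90) were 46, and all 350 were above the autosomal median. In the shared regions the median was 2.36 (1.72 to 3.28), and all 397 were above the X median. The MOF values chose the classes, so that this order is fixed by the rule. The X median took no part in the split, but it covers only X positions with a MOF value, MOF regions included. The regions were also chosen for high MSL2, whose ratio shares its input with MOF. Their place above the X median is therefore not independent of that choice and is given as a description. Outside all MSL2 regions the X positions with both values had a MOF median of 0.70.

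**Figure D2:**
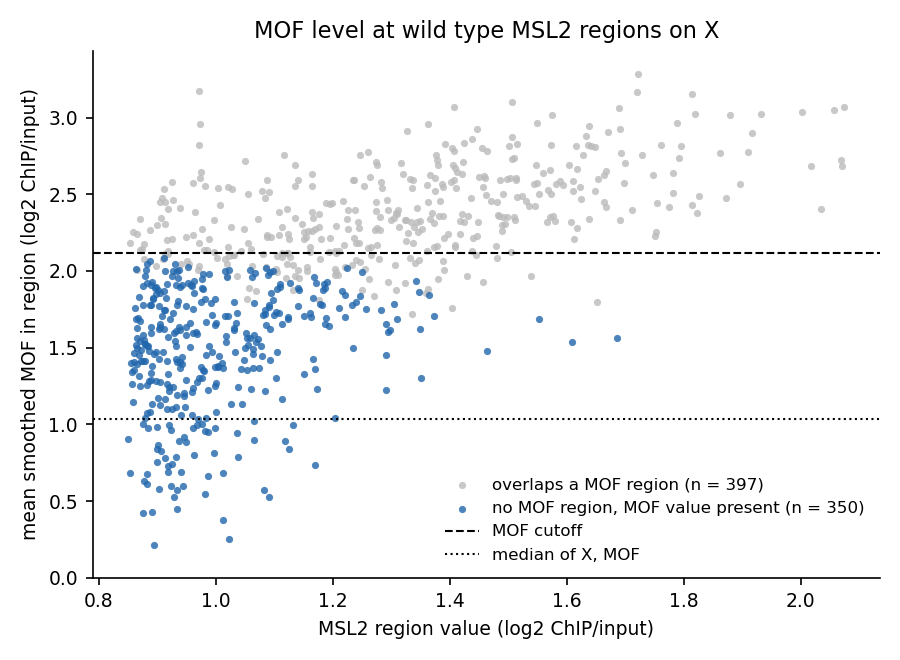
Mean smoothed MOF log2 ratio (vertical axis) against MSL2 region value (horizontal axis, log2 ratio) for the 747 X MSL2 regions with a MOF value, 1 point per region. Most MSL2-only regions (blue, n = 350) lie between the X median of MOF at 1.04 (dotted line) and the MOF cutoff at 2.12 (dashed line), and shared regions (grey, n = 397) can fall under the cutoff because a mean over the region is plotted.

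Many MSL2-only regions came close to the MOF cutoff. The highest smoothed MOF value lay at most 0.1 under or past the cutoff in 52 of the 350 regions, at most 0.25 under it or past it in 102, and at most 0.5 under it or past it in 182 (52.0%). In 5 regions the MOF value reached the cutoff over a run too short to be called. These 5 are the regions just outside the MOF calls. The highest MOF value was 2.19 at X:7847300-7853500, 2.14 at both X:17981260-17982200 and X:13156700-13157800, 2.13 at X:2010100-2011400 and 2.12 at X:15645940-15647610. The 5 shared regions just inside had highest MOF values of 2.12 at X:20299620-20300040, X:7623200-7623750 and X:9009490-9009950, and of 2.13 at X:18768580-18770140 and X:19160300-19160680. The values on both sides of the limit are thus nearly the same, and the class of such regions rests on the cutoff.

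The number of MSL2-only regions followed the MOF cutoff. With the highest 3 percent of MOF values called bound (cutoff 1.41), 128 regions were left without a MOF region, and with the highest 5 percent (cutoff 1.02) 64 were left. All 128 and all 64 were also among the 374. MOF regions covered 933480 bp of X and MSL2 regions 1303580 bp. At the MOF cutoff of 1.83, where both cover the same length (an alternative chosen after seeing the data), 261 regions were left, with a median MOF level of 1.37. The highest MOF level among the 64 regions was 1.00.

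Low MOF values were found at few MSL2-only regions. The mean MOF log2 ratio was under 1 in 52 of the 350 regions and under 0.5 in 6. The lowest 5 were X:5594870-5595440 with 0.22, X:16223710-16224090 with 0.25, X:824770-825170 with 0.38, X:2579490-2579950 with 0.42 and X:2642610-2642920 with 0.43. Their MSL2 values ran from 0.88 to 1.02, which is within the range of the MSL2-only regions at large. The first 3 of them had a smoothed MOF value at 31.0%, 28.2% and 61.0% of their positions, whereas 337 of the 350 regions had one at every position. For 2 of the 5 lowest the MOF level therefore describes a minor part of the region. The 52 regions under 1 had a median length of 465 bp and a median MSL2 value of 0.93, against 520 bp and 0.98 in the other 298.

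Among the 350 MSL2-only regions the MOF level was only loosely related to the MSL2 value (Spearman's rho 0.20), against 0.50 over the 397 shared regions and 0.66 over all 747. These are correlations across regions of 2 libraries that share their input, given as a description, and the range of the MOF level in each class is limited by the rule.

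The 5 highest MSL2 values among MSL2-only regions were 1.69 at X:6172730-6174080, 1.61 at X:19918060-19919370, 1.55 at X:10757930-10763530, 1.46 at X:13997800-13998560 and 1.37 at X:18742880-18744360. Their mean MOF levels were 1.56, 1.54, 1.69, 1.48 and 1.71, all between the X median and the MOF cutoff. The first 3 are the only MSL2-only regions with a value of 1.5 or more. The 101 shared regions of that range had MOF levels from 1.80 up, with a median of 2.61, an order that the MOF calls set and that is given as a description. The highest smoothed MOF value within the 5 regions was 1.75, 2.03, 2.06, 1.61 and 2.03 in the same order.

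The 5 strongest regions differed in their surroundings. The nearest MOF region was 670 bp away for X:18742880-18744360, 1060 bp for X:10757930-10763530 and 2990 bp for X:6172730-6174080. It was 122830 bp away for X:13997800-13998560 and 159420 bp for X:19918060-19919370. Strong MSL2 calls without a MOF call were thus found both beside MOF regions and far from them.

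The longest MSL2-only regions were X:29200-36260 with 7070 bp, X:7847300-7853500 with 6210 bp and X:10757930-10763530 with 5610 bp. Their MSL2 values were 1.19, 1.36 and 1.55 and their mean MOF levels 1.69, 1.85 and 1.69. X:29200-36260 is the first MSL2 region along X, close to the telomere end of the assembled chromosome, and its nearest MOF region was 108420 bp away. The other 2 had a MOF region within 1100 bp.

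The regions were also set against their surroundings. Flanks were taken from 500 to 2000 bp on each side of a region. The region exceeded its flanks in MSL2 in 339 of 368 MSL2-only regions, with a median difference of 0.25 in log2 ratio, and in 372 of 396 shared regions, with a median of 0.39. MSL2 chose these stretches, so a rise of MSL2 was set by the rule. In MOF, 234 of 345 MSL2-only regions exceeded their flanks, with a median difference of 0.15. Among shared regions 378 of 394 did, with a median of 0.71. The MOF calls split the classes, so the larger difference in shared regions follows from the rule, and the MSL2-only values are given as a description.

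The profiles around the peak centre give the levels by distance. Sides are given by chromosome coordinate, without regard to the strand of genes. At the MSL2-only regions with a MOF value the median MOF log2 ratio was 1.56 at the centre. It was 1.33 at 1000 bp towards lower and 1.40 at 1000 bp towards higher coordinates. At the shared regions it was 2.50 at the centre and 2.12 and 2.26 at these distances. The gap at the centre is what the rule selected. At 10000 bp towards higher coordinates the medians were 1.36 in MSL2-only regions (216 with a value) and 1.20 in shared regions (219). At 10000 bp towards lower coordinates they were 1.14 (213) and 1.29 (221). The order of the classes thus differed between the sides at this distance.

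**Figure D3:**
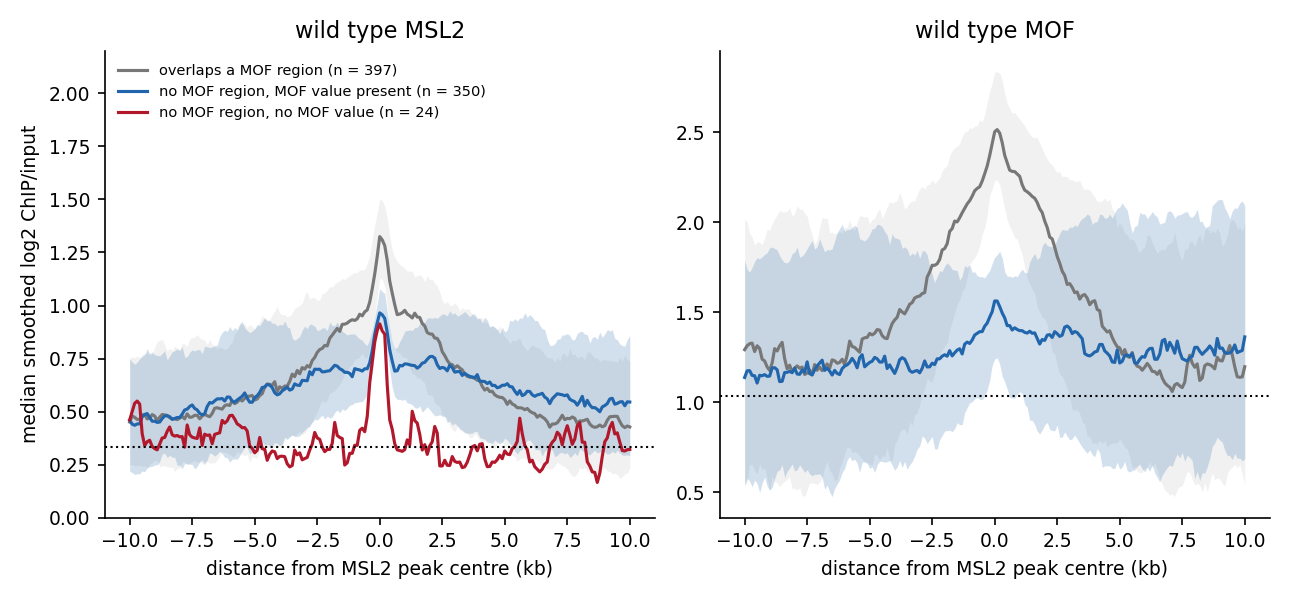
Median smoothed log2 ratio of wild type MSL2 (left) and MOF (right) against the distance from the MSL2 peak centre in kb, with shaded bands from the lower to the upper quartile (no band for the 24 regions without a MOF value, which have too few MOF values to be drawn at right). Dotted lines mark the X median. At the centre MOF has a median of 2.50 in shared regions (grey) and 1.56 in MSL2-only regions with a MOF value (blue), and the red MSL2 line of the 24 falls to about the X median within 1 kb.

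How far MOF rose differed with the distance to the next MOF region. Of the 350 MSL2-only regions with a MOF value, 34 lay within 500 bp of a MOF region, 133 within 2000 bp, 217 within 5000 bp and 264 within 10000 bp, with a median distance of 3185 bp. The 133 regions within 2000 bp had the highest MOF level, with a median of 1.76, but it did not exceed their flanks, which reach into the neighbouring MOF region (median difference -0.030, and 60 of 133 above). The 131 regions from 2000 to 10000 bp had a median MOF level of 1.42 and exceeded their flanks in 101 of 129 cases, with a median of 0.21. The 86 regions beyond 10000 bp had 1.41 and exceeded their flanks in 73 of 83 cases, with a median of 0.26. MOF thus stood above its surroundings, at a level under the cutoff, at most MSL2-only regions away from MOF regions. Beyond 2000 bp the flanks cannot reach a MOF region, so the contrast with the nearest group is set in part by the split. The regions were also chosen as stretches of high MSL2, whose ratio shares its input with MOF, so a rise of MOF there is not independent of that choice. The 3 groups had nearly the same length and MSL2 value, with medians of 520, 510 and 515 bp and of 0.98, 0.96 and 0.94. This split was chosen after seeing the data.

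**Figure D4:**
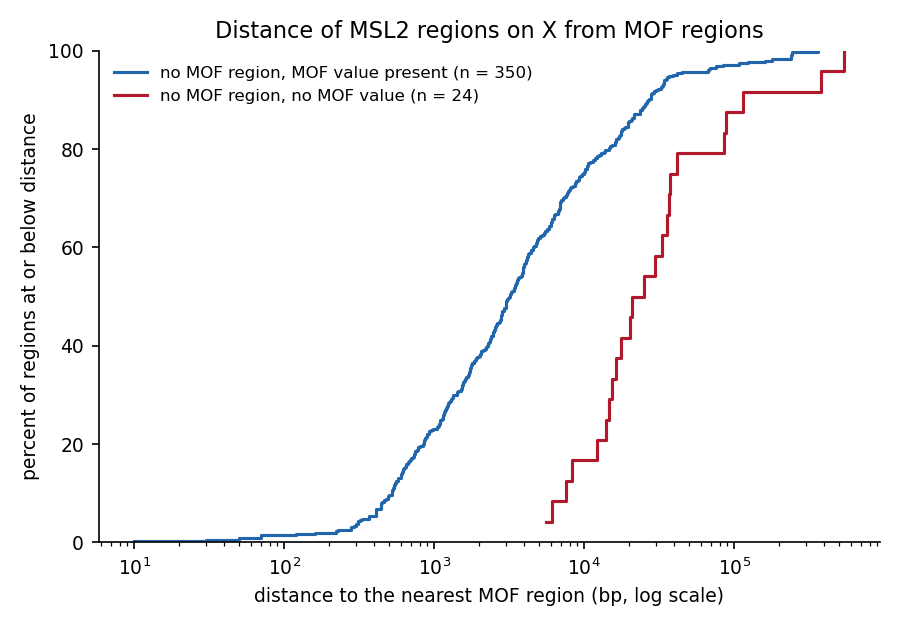
Percent of MSL2-only regions whose nearest wild type MOF region lies at or below a distance in bp (log axis), for the 350 regions with a MOF value (blue) and the 24 without (red). The blue line passes its median at 3185 bp, while the red line starts at 5580 bp and passes its median at 22875 bp. The red distances are set in part by missing MOF values.

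Beyond 100000 bp of any MOF region were 13 MSL2-only regions, 3 of them without a MOF value. The 10 with a value had MOF levels from 1.28 to 1.78, with a median of 1.60, which is close to that of all MSL2-only regions. Besides the 3 named above they include X:3381130-3382120, with a MOF level of 1.71 at 363800 bp from the nearest MOF region, and 4 short neighbours between 21495960 and 21500320 with MOF levels of 1.78, 1.68, 1.61 and 1.28. These regions were named after their values were seen.

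MSL2-only regions were found all along X. They made up from 36.0% (18 to 20 Mb) to 61.2% (2 to 4 Mb) of the MSL2 regions in steps of 2 Mb, leaving out the last step, which held 3 regions. Of the 770 pairs of neighbouring MSL2 regions, 213 were both MSL2-only, 236 both shared and 321 of 1 kind each. The longest run of neighbouring MSL2-only regions had 10 members, and 74 of the 161 runs were a single region.

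The 24 MSL2-only regions without a MOF value were isolated. No other MSL2 region lay within 1000 bp of any of them, and 1 of the 24 had one within 5000 bp, whereas 316 of the 350 regions with a MOF value did. The nearest MSL2 region was 19615 bp away in the median, against 840 bp. None of the 24 lay within 5000 bp of a MOF region, and the median distance to one was 22875 bp (5580 to 541830). A MOF region can be called only where smoothed MOF values exist, and MOF values were scarce around the 24. These distances to MOF regions are thus set in part by missing values. The 2 farthest from a MOF region were X:3203770-3204090 at 541830 bp and X:3364840-3365190 at 380730 bp. Around the 24 regions MSL2 was near the X background, with a flank median of 0.39 against 0.69 around the regions with a MOF value. They therefore exceeded their flanks by more, by 0.55 in the median, and in 21 of 21 regions with measured flanks.

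Their highest MSL2 values were 1.08 at X:4235240-4235580, 1.03 at X:2055240-2055620, 1.00 at X:1876290-1876780, 0.98 at X:407360-407610 and 0.97 at X:7799590-7800040. The longest were X:18718300-18718830 with 540 bp, X:1876290-1876780 with 500 bp and X:6616030-6616500 with 480 bp. Of the 24, 17 had a value within 0.1 of the MSL2 cutoff, and all 24 within 0.25.

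In 20 of the 24 regions no position had a MOF value even before smoothing. Their MOF level is therefore unknown and can be called neither low nor high. Within 5000 bp around them a median of 8.36% of the positions had a deposited MOF value, against 84.9% around the MSL2-only regions with a MOF value and 85.7% around the shared regions. The nearest smoothed MOF value lay 1940 bp away in the median (20 to 41470 bp) and had a median of 0.21, with a range from -0.52 to 0.99. It was thus under the X median of 1.04 in each of the 24 cases. This is a value at the edge of a stretch without MOF values. Edges of other such stretches on X were not examined, and the level inside the regions stays unknown. MSL2 itself was measured at fewer positions in the 24 regions, 85.9% in the median against 97.1%, and rested on a median of 27 deposited values per region. The part that missing positions have in these calls was not tested.

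In *roX* mutants the MSL2-only regions were seldom bound regions. *roX* mutant MSL1 regions overlapped 149 of the 771 X MSL2 regions (19.3%), made up of 19 of the 374 MSL2-only regions (5.08%) and 130 of the 397 shared regions (32.7%). The exact 95% binomial intervals are 3.09 to 7.82% and 28.1 to 37.6%, and they treat regions as independent and cover neither the library nor the antibody. The MSL2-only share moved by more than these intervals with the calls. It was 0.78% and 0% with MOF cutoffs at the highest 3 and 5 percent, 1.92% at equal length of MOF and MSL2 regions, 2.87% and 9.77% with 15 and 35 values per window, 8.33% with the MSL2 cutoff at 1 percent, 8.96% with regions of at least 500 bp and 12.0% with a 2000 bp window. The share in shared regions ran from 21.1 to 42.1% over the alternatives and was the higher one in each. *roX* mutant MSL2 regions overlapped 8.56% of the X MSL2 regions, with 8 MSL2-only and 58 shared regions. *roX* mutant MOF regions overlapped 10.2%, with 7 MSL2-only and 72 shared regions. In each of the 3 libraries the MSL2-only regions were thus under, and the shared regions over, the share of all X MSL2 regions.

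The *roX* mutant libraries had values at fewer MSL2-only regions. A smoothed MSL1 value was present at 188 of the 374 MSL2-only and 323 of the 397 shared regions. For *roX* mutant MSL2 this was 170 and 282, and for *roX* mutant MOF 87 and 228. Among the regions with a value the shares that overlapped a bound region were 10.1% and 40.2% for MSL1, 4.71% and 20.6% for MSL2, and 8.05% and 31.6% for MOF. The order of the classes held among measured regions.

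The *roX* mutant levels pointed the same way in all 3 libraries, by different amounts. The libraries are not alike in strength on X. Their cutoffs were 1.63 (MSL1), 0.60 (MSL2) and 0.81 (MOF), and X held 172 of 309, 235 of 2586 and 90 of 1679 of their regions. The median MSL1 log2 ratio was 0.61 over the MSL2-only regions with a value (-0.033 to 3.53) and 0.99 over the shared regions (-0.46 to 3.81), with an X median of 0.74. For *roX* mutant MSL2 the medians were 0.18 and 0.23 with an X median of 0.23, and for *roX* mutant MOF 0.13 and 0.36 with an X median of 0.27. The ranges of the classes overlapped almost wholly in each library. Read at the MSL2 peak centre alone (chosen after seeing the data), the MSL1 medians were 0.68 over 139 MSL2-only regions and 1.35 over 258 shared regions. MSL1 exceeded its flanks in 58 of 130 MSL2-only regions, with a median difference of -0.033, and in 166 of 227 shared regions, with a median of 0.31. Among these 130 MSL2-only regions the median one thus had no local MSL1 peak in *roX* mutants. The rest of the 374 lacked a smoothed MSL1 value in the region or enough of them in the flanks, and could not be compared.

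**Figure D5:**
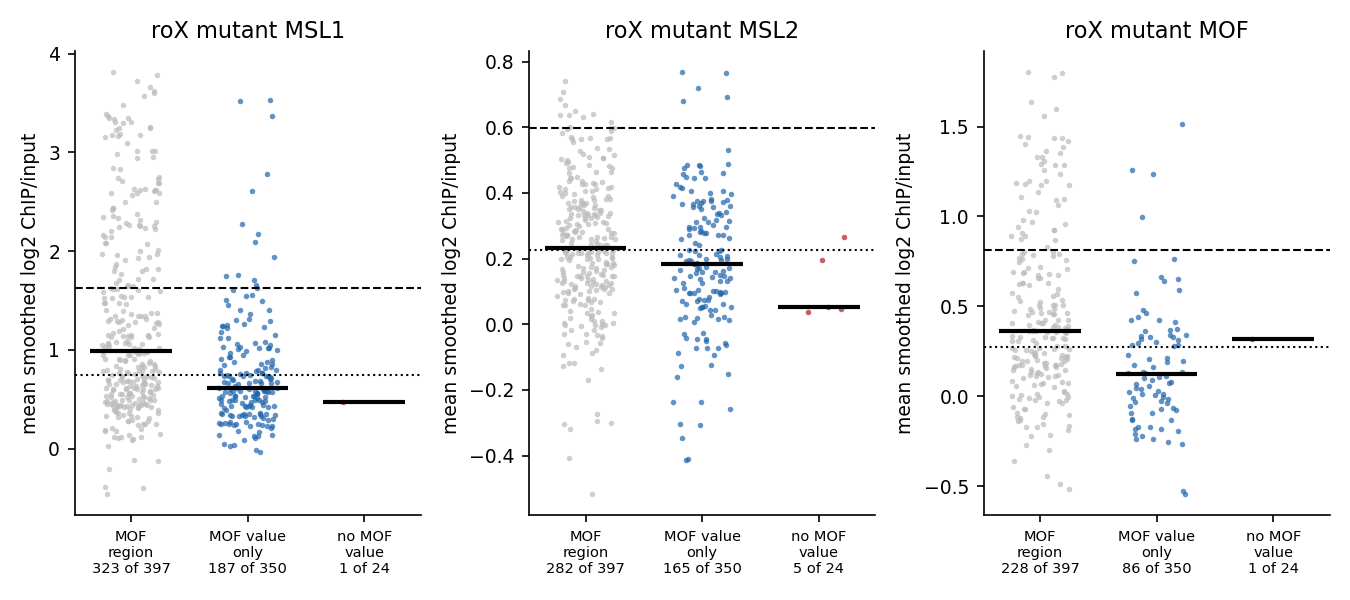
Mean smoothed log2 ratio of *roX* mutant MSL1 (left), MSL2 (middle) and MOF (right) over the wild type MSL2 regions on X, 1 point per region with a value, for shared regions (grey), MSL2-only regions with a MOF value (blue) and those without (red), with the number that had a value under each. Thick lines are medians, dashed lines the cutoff of the library and dotted lines its X median. In each panel the blue median lies under the grey one, as 0.62 against 0.99 for MSL1.

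Shared regions are longer and have higher MSL2 values, so both classes were set side by side within ranges of either measure (chosen after seeing the data). With an MSL2 value under 1.0 a *roX* mutant MSL1 region overlapped 3.00% of 233 MSL2-only and 22.0% of 50 shared regions. With a value from 1.0 to 1.2 this was 4.50% of 111 and 15.3% of 85, and from 1.2 to 1.5 it was 22.2% of 27 and 31.1% of 161. Under 500 bp the shares were 2.16% of 185 and 19.5% of 41, and from 500 to under 1000 bp they were 3.94% of 127 and 17.7% of 62. From 1000 to under 2000 bp they were 18.75% of 48 and 33.0% of 97, and at 2000 bp or more 7.14% of 14 and 40.1% of 197. The share was lower in MSL2-only regions in each of these ranges. Sorted by value, the gap was narrower for values of 1.2 to 1.5 than under 1.0. Sorted by length, it was widest at 2000 bp or more, where few MSL2-only regions are available. At values of 1.5 or more only 3 MSL2-only regions are available, 1 of which overlapped an MSL1 region. The median MSL1 levels over regions with a value under 1.0 were 0.62 and 1.01, and for values of 1.0 to 1.2 they were 0.58 and 0.68.

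The 19 MSL2-only regions that overlapped a *roX* mutant MSL1 region all had a wild type MOF value. They fell in 17 of the 172 MSL1 regions on X, and 5 of these 17 also overlapped a shared region. The MSL1 peak centre lay inside the MSL2-only region in 10 of the 19, against 105 of the 130 shared regions in an MSL1 region. A longer region has more room to hold a peak centre. Of the 130 shared regions, 79 were 2000 bp or longer, against 1 of the 19, and the part of length was not separated. Compared with the MSL2-only regions at large the 19 were longer, with a median of 1040 bp, and higher in MSL2, with a median value of 1.18. Their wild type MOF levels ran from 1.15 to 2.08, with a median of 1.76. Within 2000 bp of a wild type MOF region lay 12 of the 19, against 133 of all 374 MSL2-only regions.

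The highest *roX* mutant MSL1 levels among them were 3.53 at X:1268470-1268680 and 3.52 at X:1267460-1268120, which are neighbours. The second of these overlapped a bound region in all 3 *roX* mutant libraries, with levels of 0.77 for MSL2 and 1.26 for MOF. Its wild type MSL2 value was 1.19 and its wild type MOF level 1.92. The first had a wild type MSL2 value of only 0.86 and a wild type MOF level of 1.15. Next came X:21938220-21938830 with 3.36, which also overlapped all 3 kinds of *roX* mutant region, had the highest *roX* mutant MOF level of the MSL2-only regions (1.52) and lay 70 bp from a wild type MOF region. X:12609510-12610050 followed with 2.78 and X:18742880-18744360 with 2.61. The last overlapped all 3 kinds of region and is also among the 5 strongest MSL2-only regions in wild type. These 3 regions were the only ones of the 374 MSL2-only regions (0.80%) in bound regions of all 3 *roX* mutant libraries, against 38 of the 397 shared regions (9.57%). A smoothed value in all 3 libraries was present at 62 of the 374 MSL2-only and 207 of the 397 shared regions.

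Overlap with *roX* mutant MSL2 was concentrated at high wild type MSL2 values. Of the 8 MSL2-only regions with such an overlap, 4 were among the 5 with the highest wild type MSL2 value, with *roX* mutant MSL2 levels of 0.72 at X:6172730-6174080, 0.69 at X:19918060-19919370, 0.76 at X:13997800-13998560 and 0.68 at X:18742880-18744360. X:10757930-10763530 had 0.16 and no overlap. Among shared regions 31 of 101 with a wild type value of 1.5 or more overlapped a *roX* mutant MSL2 region, and 2 of 50 under 1.0 did. The *roX* mutant MOF levels at the same 4 MSL2-only regions were 0.068, 0.64, 0.44 and 0.76, and MOF was called bound at the last of them.

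The regions without a wild type MOF value were mostly without values in the mutants too. No smoothed value of any *roX* mutant library was present at 17 of the 24, against 115 of the 350 MSL2-only regions with a MOF value and 56 of the 397 shared regions. None of the 24 overlapped a bound region of a *roX* mutant library. With 1 of the 24 measured in MSL1 (0.47), 5 in MSL2 (0.036 to 0.27) and 1 in MOF (0.32), nothing more can be read from these libraries about them.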

How the data were processed

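The authors aligned uniquely mapped reads from the AB SOLiD 5500xl platform to release 5 of the *D. melanogaster* reference with Bioscope and deposited log2 ratios of each ChIP library to its genotype's input at positions 10 bp apart. The scaling of ChIP to input and the rule that left positions without a value are given in the methods by reference, and read depth is unknown, so no interval for counting error in the ratios could be given. Ratios from few reads are less precise, and positions without a value need not be a random sample. From the deposited values, regions were defined as the methods describe, with at least 5 bound positions per region. The level of another library at a region is the mean of its smoothed values there, and flanks needed at least 100 smoothed values. Length runs from the first to the last bound position plus 1 step of 10 bp. Each antibody and genotype has 1 library, so no test was made. The binomial intervals are exact (Clopper-Pearson) and cover sampling of regions only.

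The regions and all lists were chosen with earlier results of these data known. Named regions were, in each class of MSL2-only regions, the 5 with the highest MSL2 value and the 3 longest, then the 5 lowest in MOF, the 5 on each side of the MOF cutoff and the 5 with the highest *roX* mutant MSL1 level among those in an MSL1 region. The genotype was not checked from these ratios. The region calls and the classes were tested on simulated data with planted regions of equal length that stood well above the noise. That test does not bear on regions near a cutoff. Alternatives were other cutoffs, windows, gaps, smallest lengths and rules of overlap. The 3 *D. simulans* libraries were not used, and no gene names or sequences of release 5 were used here. Scripts ran under Python 3.11.15 with scipy 1.17.1, numpy 2.4.6, pandas 2.3.3 and, for the plots, matplotlib 3.10.9.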

Additional observations from a re-analysis of the deposited data

How the results depend on the processing

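The shared regions kept a longer median length, a higher MSL2 value and a higher *roX* mutant MSL1 level than the MSL2-only regions under every alternative in which they were recomputed. The order of the wild type MOF level is fixed by the rule in each, and that of the length is set in part by it. The counts and sizes depended on the cutoffs. The number of MSL2-only regions was 128 and 64 with MOF cutoffs at the highest 3 and 5 percent, 192 and 826 with MSL2 cutoffs at the highest 1 and 3 percent, 108 with a 2000 bp window and 212 with regions of at least 500 bp. Those without a smoothed MOF value numbered 2 and 192 with the MSL2 cutoffs at 1 and 3 percent, 9 with 35 values per window, 0 with the 2000 bp window and 1 with regions of at least 500 bp, against 24. The difference in median length, shared minus MSL2-only, was 1480 bp. It was 2035, 670 and 610 bp with MOF cutoffs at 1, 3 and 5 percent, 715 and 2680 bp with MSL2 cutoffs at 1 and 3 percent, 2715 bp with the 2000 bp window, 2360 bp with gaps up to 500 bp, 1060 bp when a MOF region within 1000 bp counted as overlap, and 1085 bp at equal length of MOF and MSL2 regions on X. The difference in median MSL2 value was 0.36. It was 0.43, 0.23 and 0.19 with the 3 MOF cutoffs, 0.22 and 0.53 with the 2 MSL2 cutoffs, 0.29 when a MOF region within 1000 bp counted as overlap, and 0.30 at equal length. The difference in median *roX* mutant MSL1 level was 0.37 and ran from 0.19 (MOF cutoff at 5 percent) to 0.51 (35 values per window), and the share of MSL2-only regions in an MSL1 region ran from 0 to 12.0%, against 5.08%. The difference in median MOF level was 0.82, and it was 1.11 and 1.36 with MOF cutoffs at 3 and 5 percent and 0.72 and 1.06 with the MSL2 cutoffs at 1 and 3 percent. The equal-length cutoff was added after seeing the data. No paired analysis was possible because each group has 1 library.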
